A study of Mus musculus with 16 samples.

Results

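A set of 7 genes of the inhibitory synapse were followed through RNA sequencing of microglia from the mouse olfactory bulb. They are Gad1 and Gad2, which encode the enzymes that make GABA, Slc32a1, the transporter that loads GABA and glycine into synaptic vesicles, Gabra2 and Gabrb2, subunits of the GABA-A receptor, Glrb, the beta subunit of the glycine receptor, and Gphn, which encodes the scaffold gephyrin. The genes were chosen by symbol as a set of inhibitory synapse parts, with earlier results of these data known. All 7 were found among the 57010 genes of the count table and among the 18227 genes tested. The 16 libraries came from mice aged 2 months on a C57BL/6 J background, 4 libraries from each sex of each genotype. WT mice were C57BL/6 J animals whose mouse App was not edited. The mice labelled APP-NL-G-F carry a knock-in of App with Alzheimer's disease mutations, so every cell that expresses App carries the change. The microglia were collected with magnetic beads against CD11b, a surface protein of microglia and other myeloid cells, over 2 columns in a row. The labels name no other agent or allele, and the sources used here do not state whether a library pools several mice. The paper's reporting summary writes the genotype of the APP-NL-G-F mice with both App alleles edited.

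GABA is the main inhibitory transmitter of the forebrain, and glycine shares its vesicular transporter. Both act through chloride channels, which gephyrin holds opposite the release site, and the glycine receptor is anchored there through its beta subunit. In the olfactory bulb, granule cells and most periglomerular cells are GABA-releasing interneurons, and they act on mitral and tufted cells, the glutamate-releasing projection neurons. None of these proteins except gephyrin, which also works in molybdenum cofactor synthesis in many tissues, is a usual product of microglia.

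The libraries held between 9052932 and 18117286 counts. Xist was at 547.4 CPM or more in every library labelled f and at 0.4483 CPM or less in those labelled m, as for female and male mice. CPM (counts scaled to a common library size) were corrected with edgeR's trimmed mean of M-values (TMM). A list of 12 microglia markers, Csf1r among them, summed to 23410 to 28290 CPM per library, with 0 of 12 called between the genotypes by edgeR, DESeq2 or limma voom (1 at an unadjusted p below 0.05). A list of 16 general neuron markers summed to 424.5 to 581.2 CPM in WT against 520.9 to 766.8 CPM in APP-NL-G-F libraries. The sum of 15 markers of olfactory bulb inhibitory neurons was 270.6 to 384.6 CPM in WT against 325.7 to 497.3 CPM in APP-NL-G-F libraries. That of 8 projection neuron markers was 43.91 CPM in WT female replicate 1 and 43.93 CPM in WT female replicate 2, and 76.78 to 197 CPM in the other libraries. Bulk counts cannot tell apart more cells of a type, or more of their RNA carried along, and more RNA per cell, and this holds for each result that follows.

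The bases before a listed start are shown here for the pairs whose patterns the results set against each other, the 2 GABA-making enzymes and the 2 GABA-A subunits. RefSeq lists a start for all 7 genes. The 250 bases before it were read from the GRCm38.p6 table and each found once in GRCm39, the build of the counts, whose coordinates are given. The capitals mark exact matches, on either strand, to 3 promoter motifs: the letters TATAAA for the TATA box, the letters GGGCGG for the GC box, and the letters CCAAT for the CCAAT box. The Gad1 window lies at chr2:70392223-70392472 on the plus strand, that of Gad2 at chr2:22512089-22512338 on the plus strand, that of Gabra2 at chr5:71253193-71253442 on the minus strand and that of the first of 3 listed starts of Gabrb2 at chr11:42311017-42311266 on the plus strand. The gene spans given below come from another annotation, and the windows shown lie inside them and not before their outer ends.
Gad1: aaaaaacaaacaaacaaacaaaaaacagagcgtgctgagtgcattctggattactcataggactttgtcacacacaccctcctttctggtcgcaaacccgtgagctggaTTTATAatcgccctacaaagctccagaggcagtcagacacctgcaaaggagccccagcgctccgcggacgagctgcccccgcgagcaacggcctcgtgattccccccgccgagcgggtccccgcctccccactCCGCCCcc
Gad2: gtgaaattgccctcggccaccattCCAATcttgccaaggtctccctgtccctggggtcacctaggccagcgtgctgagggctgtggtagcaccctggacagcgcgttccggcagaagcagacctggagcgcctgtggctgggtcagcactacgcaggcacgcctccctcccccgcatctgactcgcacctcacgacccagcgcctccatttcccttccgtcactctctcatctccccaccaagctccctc
Gabra2: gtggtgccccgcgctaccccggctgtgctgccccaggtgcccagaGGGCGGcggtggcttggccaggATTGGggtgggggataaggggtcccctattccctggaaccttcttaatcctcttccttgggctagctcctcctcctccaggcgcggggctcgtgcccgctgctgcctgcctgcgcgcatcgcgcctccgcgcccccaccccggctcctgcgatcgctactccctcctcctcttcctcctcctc
Gabrb2: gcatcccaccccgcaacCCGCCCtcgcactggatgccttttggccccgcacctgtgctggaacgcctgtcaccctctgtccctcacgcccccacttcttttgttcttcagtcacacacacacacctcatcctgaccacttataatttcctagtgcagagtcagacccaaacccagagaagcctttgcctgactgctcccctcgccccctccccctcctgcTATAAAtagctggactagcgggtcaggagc

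The Gad1 and first Gabrb2 windows each held a TATA box and a GC box, the Gabra2 window a GC box and a CCAAT box, and the Gad2 window a CCAAT box alone. A box here means the letters only, and in the Gad1 window TATAAA was matched on the opposite strand, as TTTATA. Of 32841 promoter windows of this length, 12.4% held TATAAA, 32.7% GGGCGG and 33.9% CCAAT. The motif TAATTA, a core that many homeodomain factors bind, was in 4.84% of all windows and in 0 of the 9 windows of the 7 genes, which says only that these letters are not in these stretches. The windows of Gphn and Glrb held a GC box and that of Slc32a1 none of the 3 motifs. The CpG number was 34 for Gphn, more than in 96.5% of all windows, 20 for Glrb, 18 for Gabra2, 17 for Gad1, 13 for Gad2 and 12 for Slc32a1, against a median of 6. The 3 starts of Gabrb2 held 8, 8 and 4.

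Gad1 (ENSMUSG00000070880), Gad2 (ENSMUSG00000026787) and Slc32a1 (ENSMUSG00000037771) all lie on chromosome 2, at 70383416 to 70432372, 22511862 to 22583886 and 158452605 to 158464883 in GRCm39. Gabra2 (ENSMUSG00000000560) spans 71114573 to 71253662 of chromosome 5, and Gabrb2 (ENSMUSG00000007653) 42310493 to 42523417 of chromosome 11. Gphn (ENSMUSG00000047454) lies at 78272504 to 78732541 of chromosome 12 and Glrb (ENSMUSG00000028020) at 80749136 to 80882860 of chromosome 3. They run from 12.28 kb for Slc32a1 to 460 kb for Gphn, longer than 98.2% of the 13670 protein-coding genes tested, whose median is 27.85 kb.

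Per kb of exon, Gad1 was the most abundant of the genes at 10.45 ± 2.67 CPM per kb (SD over the 16 libraries). Gad2, which makes GABA at nerve terminals, followed at 3.668 ± 0.638 CPM per kb, and Slc32a1 stood at 2.418 ± 0.596 CPM per kb. Gphn was at 2.189 ± 0.263 CPM per kb, so that the ranges over libraries of Slc32a1 and Gphn overlapped. The receptor subunits were lowest, with Gabrb2 at 0.7754 ± 0.269, Gabra2 at 0.596 ± 0.160 and Glrb at 0.5857 ± 0.0977 CPM per kb, and the ranges of these 3 overlapped. The Gad1 level was higher than that of 83% of the protein-coding genes tested and the Glrb level higher than that of 19.7%.

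**Figure D1:**
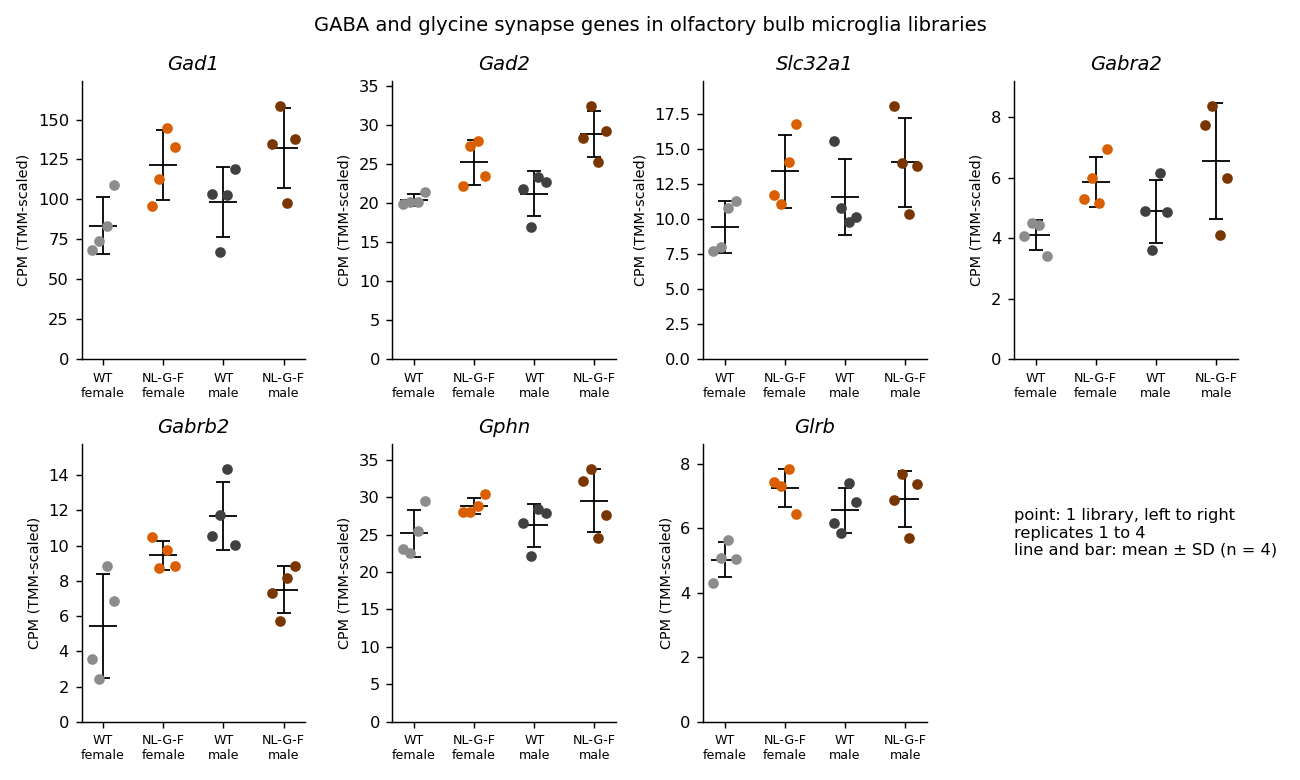
CPM (TMM-scaled, vertical axes from 0) of the 7 genes in each of the 16 libraries by group, each point 1 library with replicates 1 to 4 from left to right, and the line and bar the mean ± SD of 4. Gad2 lies higher in every APP-NL-G-F library than in every WT library of the same sex, and Gabrb2 lies low in WT female replicates 1 and 2 (3.565 and 2.428 CPM) and reaches 14.35 CPM in a WT male library.

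The first question was whether these genes differed between APP-NL-G-F and WT mice over both sexes. Gad1, Gad2, Slc32a1, Gabra2 and Glrb were higher in APP-NL-G-F libraries at a Benjamini-Hochberg false discovery rate (FDR) below 0.1 in edgeR's quasi-likelihood test with sex as a term, by 1.24-fold for Glrb to 1.4-fold for Gad1. None of the 7 reached the log2 fold change of 0.5 that a call also required. Thus 0 of 7 were called, where 4.33% of all genes tested were called higher, and 5 of 7 passed the FDR alone, where 6.95% did. At an unadjusted p below 0.05 the count was 6 of 7, DESeq2 called 0 and limma voom 1 (Gad1). All 7 lay above 0, with a median log2 fold change of 0.38, against -0.001 for all genes tested, of which 49.56% lay above 0. Since the genes were chosen with earlier results of these data known, these counts and shares describe the set and are no test of it. With the mean level of 16 general neuron markers as a covariate, 0 of 7 passed the FDR alone (1 at an unadjusted p below 0.05, Gad2), where 0.143% of all genes did so upward by edgeR. The log2 fold changes were then 0.18 for Gad1, 0.23 for Gad2, 0.22 for Slc32a1, 0.24 for Gabra2, 0.14 for Glrb and 0.03 for Gphn.

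Gad1 encodes GAD67, which makes most of the GABA of the brain. It measured 68.05, 73.99, 83.38 and 109.1 CPM in the WT female libraries and 95.6, 112.5, 144.5 and 133.1 CPM in the APP-NL-G-F female libraries, in replicate order. In males it was 103.3, 67.16, 103 and 119.1 CPM in WT against 134.4, 158.3, 97.81 and 137.9 CPM in the APP-NL-G-F libraries. The groups overlapped in both sexes, and each of the 8 APP-NL-G-F libraries lay above the WT median. Its log2 fold change was 0.48 (SE 0.125, FDR = 0.0205 by edgeR). This value lies just under the fold threshold, and leaving out 1 library gave 0.43 to 0.56 and passed it in 7 of 16 cases.

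Gad2 encodes GAD65. It measured 19.83, 20.12, 20.2 and 21.45 CPM in WT females and 22.14, 27.31, 27.99 and 23.5 CPM in APP-NL-G-F females. Male libraries had 21.84, 16.93, 23.42 and 22.75 CPM in WT against 28.32, 32.43, 25.27 and 29.3 CPM in APP-NL-G-F mice. Within each sex the ranges did not overlap, while over both sexes they did, since some WT male libraries lay above the lowest APP-NL-G-F female library. Of the 7 genes, 0 had the ranges of the genotypes apart over both sexes, as 0.137% of all genes tested did upward. Gad2 had the smallest FDR of the 7 genes, with a log2 fold change of 0.38 (SE 0.0754, FDR = 0.00417 by edgeR), and it stayed below an FDR of 0.1 with any 1 library left out.

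Slc32a1, the vesicular transporter, measured 7.693, 7.977, 10.78 and 11.28 CPM in WT females and 11.71, 11.04, 14.04 and 16.77 CPM in APP-NL-G-F females. In males the values were 15.59, 10.8, 9.75 and 10.16 CPM in WT against 18.03, 13.98, 10.33 and 13.77 CPM in the APP-NL-G-F libraries. WT male replicate 1 stood above 6 of the APP-NL-G-F libraries, and the groups overlapped. The log2 fold change was 0.39 (SE 0.134, FDR = 0.0792 by edgeR). It was below an FDR of 0.1 in 6 of 16 fits that left out 1 library, so that the FDR call rests on single libraries. On the opposite strand an antisense RNA, Gm14204, shares 302 exonic bases with Slc32a1. It was called higher, with a log2 fold change of 0.90 (SE 0.245, FDR = 0.0272 by edgeR). The kit marks strand, but the column of counts used is not stated, and reads of the shared bases may not be told apart.

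Among the receptor subunits, Gabra2 encodes the alpha2 subunit, found at many GABA-A synapses. It measured 4.065, 4.509, 4.426 and 3.418 CPM in WT females and 5.285, 5.97, 5.167 and 6.96 CPM in APP-NL-G-F females, with no overlap. In males the values were 4.882, 3.6, 6.164 and 4.875 CPM in WT against 7.74, 8.356, 4.114 and 5.973 CPM in the APP-NL-G-F libraries, where replicate 3 of the knock-in lay below 3 of the WT libraries. The log2 fold change was 0.48 (SE 0.144, FDR = 0.0452 by edgeR), with 39 to 101 counts per library.

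Glrb, which anchors the glycine receptor to gephyrin, measured 4.316, 5.087, 5.64 and 5.041 CPM in WT females and 7.426, 7.313, 7.837 and 6.437 CPM in APP-NL-G-F females. The WT male values were 6.167, 5.85, 7.397 and 6.805 CPM and the APP-NL-G-F male values 6.89, 7.694, 5.709 and 7.378 CPM. The female ranges lay apart and the male ranges overlapped. Over both sexes the log2 fold change was 0.31 (SE 0.106, FDR = 0.0757 by edgeR), and 7 of 16 fits without 1 library stayed below an FDR of 0.1.

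Gphn measured 23.08, 22.54, 25.49 and 29.48 CPM in WT females and 28.03, 27.99, 28.85 and 30.39 CPM in APP-NL-G-F females. Male libraries had 26.55, 22.11, 28.35 and 27.93 CPM in WT against 32.15, 33.75, 24.6 and 27.55 CPM in APP-NL-G-F mice. The groups overlapped in both sexes. Its log2 fold change of 0.18 (SE 0.0744) did not pass the FDR threshold (FDR = 0.128 by edgeR), and gephyrin also has its role outside synapses. Gphn shares 796 exonic bases with Gm48226, a noncoding RNA on the opposite strand that had -0.29 (SE 0.163, FDR = 0.3 by edgeR). Reads of these bases may not be told apart either. Gm48225, a transcript on the same strand that shares 0 exonic bases with Gphn, was called higher (0.89, SE 0.304, FDR = 0.0734 by edgeR).

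**Figure D2:**
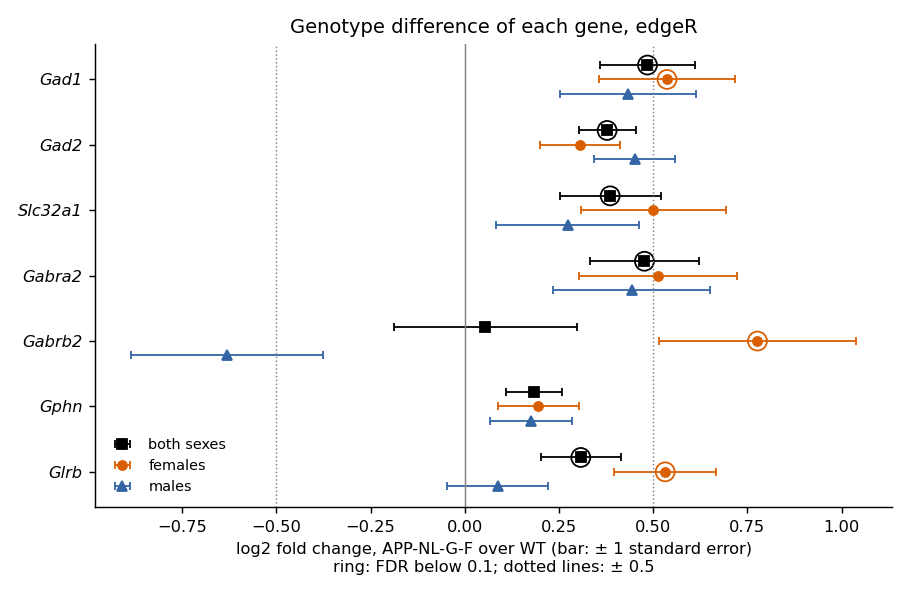
Log2 fold change of APP-NL-G-F over WT for each gene (horizontal axis, bars ± 1 SE) over both sexes (squares), in females (circles) and in males (triangles), with rings at an FDR below 0.1 and dotted lines at ± 0.5. Over both sexes 5 genes are ringed but lie under 0.5, and Gabrb2 lies at 0.78 in females and at -0.63 in males.

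Gabrb2 was the exception among the 7. It encodes the beta2 subunit, part of the most common GABA-A receptor of the adult brain. It measured 3.565, 2.428, 8.852 and 6.835 CPM in WT females and 10.5, 8.731, 9.731 and 8.832 CPM in APP-NL-G-F females. In males the order was the other way, with 10.54, 11.76, 14.35 and 10.06 CPM in WT against 7.315, 5.709, 8.144 and 8.854 CPM in the APP-NL-G-F libraries. All male APP-NL-G-F values were below all male WT values, and in females 1 WT library lay within the APP-NL-G-F range. Over both sexes its log2 fold change was 0.06 (SE 0.244, FDR = 0.932 by edgeR), and its sign changed when 1 of 3 female libraries was left out (-0.01 for APP-NL-G-F replicate 1, -0.08 each for WT replicates 1 and 2).

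Contrasts within each sex came from a fit of the 4 groups. In females 3 of 7 genes were called higher, Gad1 (log2 fold change 0.54, SE 0.181, FDR = 0.0922), Gabrb2 (0.78, SE 0.262, FDR = 0.0934) and Glrb (0.53, SE 0.135, FDR = 0.0274, edgeR throughout), where 2.82% of all genes were called higher. The median of the 7 was 0.51, and all 7 lay above 0. At an FDR of 0.05, Glrb alone was called. The ranges of Gad2, Gabra2 and Glrb lay apart, 3 of 7 against 5.21% of all genes tested. The female calls changed with single libraries. The count was 0 without APP-NL-G-F female replicate 3 and also without WT female replicate 1, and without APP-NL-G-F male replicate 3, which enters through the common estimate of spread, it was 5. Glrb alone was called without WT female replicate 2, and without any 1 of WT male replicates 1 and 3, of replicates 1 and 4 of the APP-NL-G-F males and of replicates 2 and 4 of the APP-NL-G-F females. With WT female replicates 1 and 2 left out together, the female log2 fold change of Gabrb2 was 0.27 (FDR = 0.689) and that of Glrb 0.45 (FDR = 0.301), and 0 of 7 were called (edgeR).

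In males 0 of 7 genes were called by edgeR, where 0.252% of all genes were called in either direction, with 4 of 7 at an unadjusted p below 0.05 and 0 called by DESeq2 or limma voom. Gad2 had a log2 fold change of 0.45 (SE 0.107, FDR = 0.113), and its male ranges lay apart upward, as for 1.83% of all genes tested. Gabrb2 had -0.63 (SE 0.255, FDR = 0.342), and its ranges lay apart downward, as for 3.18%. Gad1 had 0.43 (FDR = 0.358), Gabra2 0.44 (FDR = 0.424), Slc32a1 0.27 (FDR = 0.608), Gphn 0.18 (FDR = 0.555) and Glrb 0.09 (FDR = 0.839). Without APP-NL-G-F male replicate 3, which had the lowest Gad1, Gad2, Slc32a1, Gabra2, Gphn and Glrb values of its group, Gad2 and Gabra2 were called (0.51 and 0.61, edgeR FDR = 0.0446 and 0.0958).

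The difference between the sexes in the genotype effect was tested as an interaction. For Gabrb2 it was 1.41 on the log2 scale (SE 0.365, unadjusted p = 0.00119, FDR = 0.274 by edgeR), so that it did not pass the correction over all genes. Glrb followed with 0.44 (SE 0.191, unadjusted p = 0.0319, FDR = 0.768 by edgeR), and the other five lay between -0.14 for Gad2 and 0.23 for Slc32a1. None of the 7 was called by edgeR, where 0.0274% of all genes were, with 2 at an unadjusted p below 0.05, 1 called by DESeq2 (Gabrb2, FDR = 0.0449) and 0 by limma voom. Leaving out WT female replicate 3, the highest of its group for Gabrb2, raised the interaction of Gabrb2 to 1.77 (FDR = 0.0697 by edgeR). Leaving out WT female replicates 1 and 2 together lowered it to 0.90. Female and male libraries over both genotypes did not differ in any of the 7 by edgeR (0 called, 0 at an unadjusted p below 0.05, 0 by DESeq2 and by limma voom, against 0.0604% of all genes called). Each of the 7 lay below 0 in females relative to males, with a median of -0.17.

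The 16 libraries carry running numbers, and replicates 1 and 2 of each group hold numbers 1 to 8 and replicates 3 and 4 numbers 9 to 16. Within numbers 1 to 8 the genotype difference was called for Gad1 (0.66, FDR = 0.00388 by edgeR) and Gabra2 (0.67, FDR = 0.0234), 2 of 7 where 8.1% of all genes tested in that set were called higher, and Gphn reached 0.36 (FDR = 0.0113). Within numbers 9 to 16 none was called by edgeR, where 0.126% of all genes tested there were called higher, with 3 at an unadjusted p below 0.05 (Gad1 0.32, Gad2 0.28, Slc32a1 0.40), and Gphn was at 0.01 (FDR = 0.987). At the FDR alone, 6 of the 7 genes passed within numbers 1 to 8, where 3679 of 18534 genes did in either direction. Within numbers 9 to 16 it was 0 of 7, where 96 of 18282 genes did. Slc32a1 was at 0.40 in either set. With the library set (numbers 1 to 8 or 9 to 16) as a term in the fit of all 16 libraries, 0 of 7 were called over both sexes. The log2 fold changes were then 0.50 for Gad1, 0.38 for Gad2, 0.39 for Slc32a1 and 0.47 for Gabra2. Glrb had 0.31, Gphn 0.19 and Gabrb2 0.07. Whether the genotype difference depended on the set was not tested.

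General and inhibitory neuron markers mostly lay higher in APP-NL-G-F libraries, beside these genes. Over all genes tested, 4.33% were called higher and 6.95% passed the FDR alone upward, the shares for each marker list here. Of 16 general neuron markers 0 were called by edgeR, DESeq2 or limma voom (9 at an unadjusted p below 0.05, 8 at the FDR alone, median 0.27). Map2 and Syt1, the most counted, had 0.37 (FDR = 0.0228) and 0.43 (FDR = 0.00796 by edgeR). Of the 14 tested inhibitory neuron markers 3 were called, all higher. Those 3 were Meis2 (0.63, FDR = 0.0179), Dlx6 (0.75, FDR = 0.0132) and Synpr (0.87, FDR = 0.000819), of which the first and second encode transcription factors of bulb interneurons and the last a vesicle protein. None of the 7 tested projection neuron markers was called by edgeR, DESeq2 or limma voom, with 0 at an unadjusted p below 0.05. Their median was 0.45 in females and -0.42 in males, the same signs as for Gabrb2. Slc17a7, Slc17a6, Cdhr1 and Reln had these signs, while Tbx21 and Tbr1 lay above 0 in both sexes and Eomes below 0 in both. Reln and Cdhr1 were the most counted of the list, at means of 73.64 and 35.81 CPM. WT female replicates 1 and 2, low in Gabrb2, had the lowest projection neuron sums. Among the other cell types, 2 of 7 neuroblast markers (Dcx, 0.71, and Igfbpl1, 0.79) were called higher by edgeR, with 3 at an unadjusted p below 0.05. The neuroblast median was 0.14, with 4 of 7 above 0 and Cd24a, Stmn1 and Tubb2b below 0. Of 9 oligodendrocyte markers 1 (Mog, 0.77) was called higher by edgeR, 2 by DESeq2 and 1 by limma voom, with 7 at an unadjusted p below 0.05. All 9 lay above 0, with a median of 0.39. Of the astrocyte, oligodendrocyte precursor, olfactory ensheathing cell, endothelial and border macrophage markers 0 were called by edgeR, DESeq2 or limma voom, with 1, 1, 1, 0 and 0 at an unadjusted p below 0.05. These counts are over both sexes. The endothelial median was -1.02 in females and 0.82 in males, the astrocyte median -0.58 and 0.14, and the ensheathing cell median -0.30 and 0.30. That of border macrophages was -0.02 and 0.22, and that of oligodendrocyte precursors 0.08 and 0.27. The part of these cells in the results was not tested.

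**Figure D3:**
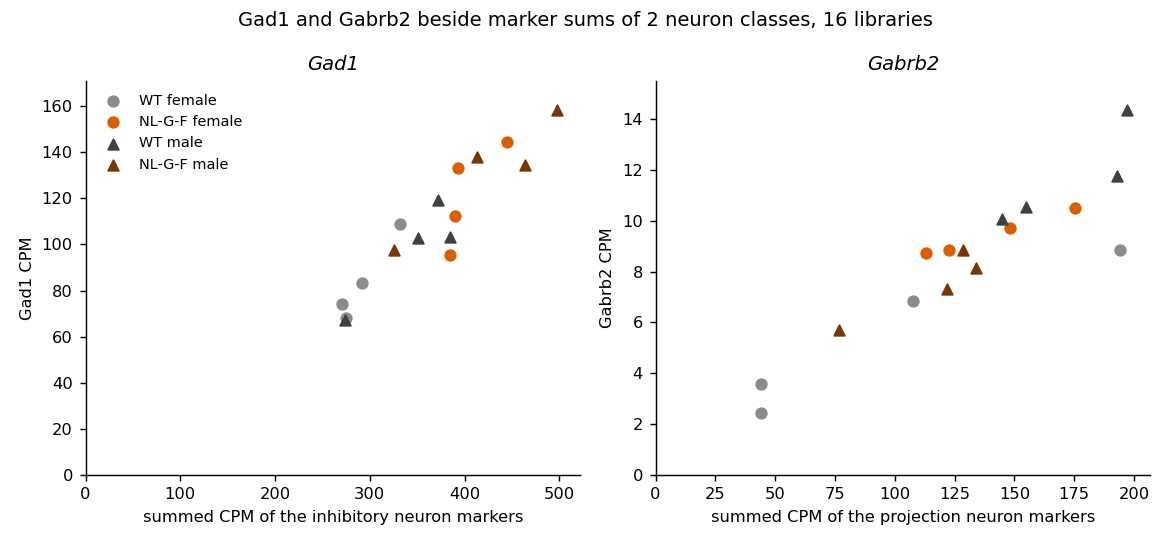
Gad1 CPM beside the summed CPM of the inhibitory neuron markers (left) and Gabrb2 CPM beside that of the projection neuron markers (right), each point 1 of the 16 libraries (circles female, triangles male, grey WT, orange to brown APP-NL-G-F). Gad1 spans 67.16 to 158.3 CPM and is higher where its sum is higher, and Gabrb2 runs along its own sum from 2.428 CPM in WT female replicate 2 to 14.35 CPM in WT male replicate 3.

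Across the 16 libraries, the level of each gene in log2 CPM was set beside that of every other tested gene, as a description in which all points share the genotype, the sex and the preparation. Gad1 went with the inhibitory neuron sum (Pearson r = 0.939, n = 16 libraries) and so did Gphn (0.893), Gad2 (0.875), Glrb (0.815), Gabra2 (0.803) and Slc32a1 (0.786). Gabrb2 had 0.319 there and 0.952 with the projection neuron sum, where the other genes had -0.025 (Gad2) to 0.512 (Glrb). Between the members, Gad1 and Gphn had the highest r (0.898), the 6 without Gabrb2 ranged from 0.544, and Gabrb2 had 0.08 with Gad2 to 0.595 with Glrb. Gabrb2 was also opposite to the endothelial markers (r = -0.869), whose sums reached 227.5 CPM in WT females against at most 123 CPM in the other groups.

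The most similar genes were Ndrg4 (r = 0.982), Trpc4 (0.981) and Sgip1 (0.98) for Gad1, and Kcna1 (0.941), a potassium channel, Cnksr2 (0.925) and Ppp1r1a (0.921) for Gad2. For Slc32a1 they included Shisa8 (0.923) and Slc6a17 (0.908), and for Gabra2 they were Larp6, Fbxo21 and Cdk14 (0.894 each). Gabrb2 was most like Fstl5 (0.962), Reln (0.948), which mitral cells express, and Cdhr1 (0.934), and Reln and Cdhr1 are themselves among the projection neuron markers. Gphn was most like the noncoding RNAs Rian (0.963) and Mirg (0.961) of the imprinted Dlk1-Dio3 region and the transcript Gm37677 (0.959). Glrb was most like Gm45416 (0.919), Abi3bp (0.9) and Gm25194 (0.898).

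The level of each gene was also set as a percent of a marker sum that does not include it. Relative to the inhibitory neuron sum, Gad1 was 28.3% ± 3.06 in WT against 30.54% ± 3.001 in APP-NL-G-F libraries (8 per genotype, SD), Gad2 6.59% ± 0.595 and 6.57% ± 0.675, and Slc32a1 3.30% ± 0.551 and 3.31% ± 0.513. Gphn was 8.12% ± 0.651 in WT against 7.08% ± 0.432 in APP-NL-G-F libraries. In the same order, Gabra2 was 1.419% ± 0.2345 and 1.487% ± 0.2147, and Glrb 1.823% ± 0.2386 and 1.722% ± 0.1542. Relative to the projection neuron sum, Gabrb2 was 6.14% ± 1.51 in WT females, 6.87% ± 0.748 in APP-NL-G-F females, 6.78% ± 0.497 in WT males and 6.60% ± 0.688 in APP-NL-G-F males (SD, n = 4 each). These ratios are descriptions and were not tested.

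Beside the 7 genes, 62 others of the inhibitory synapse and the molybdenum cofactor pathway were listed by role, of which 49 passed the filter on low counts. Of these, 5 were called higher and 0 lower over both sexes by edgeR, 10 passed the FDR alone, all higher, and 34 lay above 0. The cofactor pathway makes up 7 of the 62, all 7 tested, with 0 called, 0 at the FDR alone and 3 above 0. Since 4.33% of all genes tested were called higher, the 5 called here are given as a count only.

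The GABA-A receptor list had 17 further subunits, of which 10 were tested and 3 were called. Gabra5, the alpha5 subunit of extrasynaptic receptors, was at 7.441 ± 1.52 CPM in WT against 11.3 ± 1.98 CPM in APP-NL-G-F libraries (8 per genotype, SD; log2 fold change 0.61, SE 0.12, FDR = 0.00395 by edgeR). Gabra4 was at 2.687 ± 0.555 and 4.175 ± 0.839 CPM (0.65, SE 0.159, FDR = 0.0155 by edgeR) and Gabrg3 at 1.489 ± 0.412 and 2.45 ± 0.674 CPM (0.72, SE 0.210, FDR = 0.0367 by edgeR). The ranges of the genotypes overlapped for all 3. The median of the 10 was 0.36 over both sexes, and Gabrp had 0 counts in all 16 libraries, where 0 allows up to 3 counts per library.

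**Figure D4:**
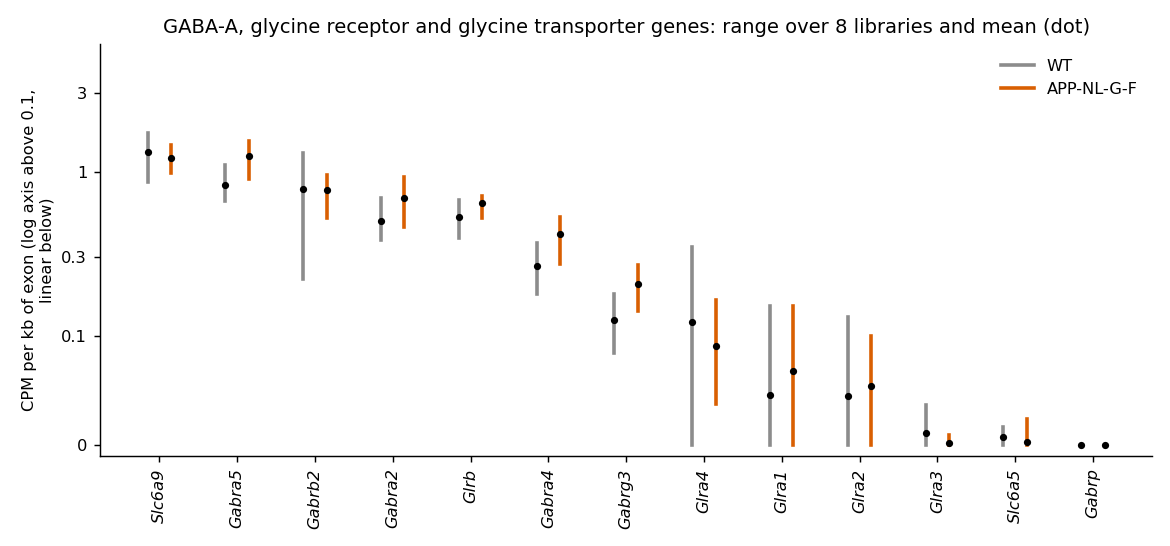
CPM per kb of exon of 13 genes of the GABA-A receptor, the glycine receptor and glycine transport (vertical axis, log above 0.1 and linear below), with the range over the 8 WT libraries (grey) and the 8 APP-NL-G-F libraries (orange) and the mean as a dot. The Glra genes lie at means over the 16 libraries of at most 0.1057 CPM per kb, while Glrb lies at 0.5857 CPM per kb.

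The alpha subunits of the glycine receptor, which carry the glycine site together with the beta subunit, were all under the filter. Glra1, Glra2, Glra3 and Glra4 averaged 0.1597, 0.2131, 0.05958 and 0.2124 CPM over the 16 libraries, and no genotype test was made. Glrb, at 0.5857 CPM per kb against 0.1057 CPM per kb for Glra4, the highest of these, thus had no tested alpha partner, and differences in the alpha genes were not detectable at this depth. Slc6a5, the neuronal glycine transporter, was at 0.03542 CPM. Slc6a9, the other glycine transporter, was the only further tested gene of this list, with a log2 fold change of -0.11 (FDR = 0.652 by edgeR).

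In the list of GABA synthesis, transport and breakdown 6 further genes were tested and 0 called by edgeR, DESeq2 or limma voom (3 at an unadjusted p below 0.05). Slc6a11, the GABA transporter GAT3 of astrocytes, had -0.19 (FDR = 0.547). Of the 6 GABA-B receptor genes 0 were called by edgeR or DESeq2 and 1 by limma voom (2 at an unadjusted p below 0.05). Kctd12, an auxiliary subunit, was the most abundant at 273.8 CPM per kb and had -0.09 (FDR = 0.225), and Gabbr1 had 0.21 (FDR = 0.16).

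Of the 19 further scaffold and receptor partners, all tested, 2 were called. Slitrk3, an adhesion protein that induces inhibitory synapses, was at 2.437 ± 1.01 CPM in WT against 4.241 ± 1.29 CPM in APP-NL-G-F libraries (0.82, SE 0.234, FDR = 0.0344 by edgeR). Lhfpl4, a partner needed for GABA-A clusters, was at 8.27 ± 1.94 and 11.98 ± 2.89 CPM (0.54, SE 0.155, FDR = 0.0339 by edgeR). The most abundant per kb, Gabarap, a trafficking protein made in most cells, had -0.10 (FDR = 0.282), and Hap1 had 0.24 (FDR = 0.303). The median of the list was 0.25.

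Since gephyrin also makes the molybdenum cofactor, 7 genes of that pathway and its enzymes were read beside it. None was called by edgeR, DESeq2 or limma voom, with 0 at an unadjusted p below 0.05, and their median log2 fold change was -0.09, against 0.18 for Gphn. Mocs3 had -0.12 (FDR = 0.617) and Suox -0.09 (FDR = 0.71).

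**Figure D5:**
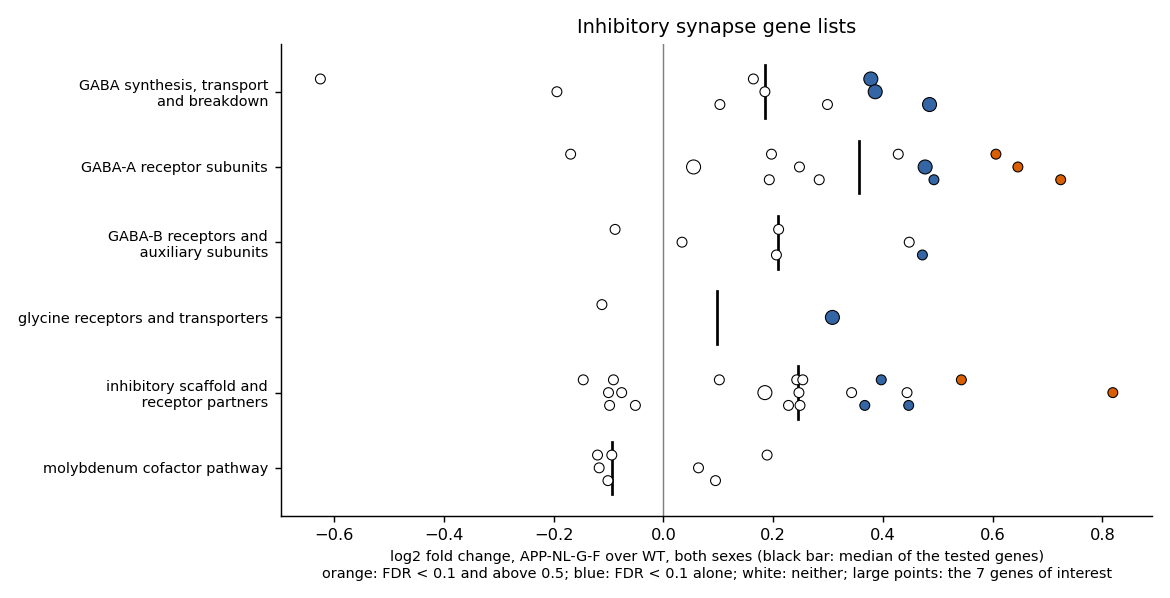
Log2 fold change of APP-NL-G-F over WT over both sexes (horizontal axis) of each tested gene in 6 lists, of the inhibitory synapse and the molybdenum cofactor pathway, with orange points called, blue points below an FDR of 0.1 alone, white points neither, large points the 7 genes and the black bar the median of the list. The called genes, all higher, lie in the GABA-A receptor and scaffold lists, and none lies in the molybdenum cofactor list.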

How the data were processed

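Paired-end reads were mapped by the authors with STAR, on GRCm39 and its gencode genes extended by human App. The deposited table holds raw counts per gene, whole numbers not normalized, and each column was matched to a library by its title. The filter asked for 5 counts or more in 8 or more of the 16 libraries. It kept 18227 of 57010 genes, with 99.86% of all counts. Counts were scaled by TMM and tested with edgeR 4.0.16 (R 4.3.3) in the quasi-likelihood framework, with sex as a term over both sexes and with 4 groups for contrasts within sex. A call was an FDR below 0.1 over all genes tested and an absolute log2 fold change above 0.5. Log2 CPM carry a prior count of 2. Alternatives were DESeq2 1.42.0, limma 3.58.1 and other normalizations, filters and thresholds. Further ones were a replicate block, the library set as a term, a neuron covariate and leaving out each library. The fit without 2 WT female libraries was added after seeing the data. The procedure was tested on simulated counts. Exon lengths and positions came from a later gencode release of GRCm39. Promoter windows came from RefSeq (GRCm38.p6).

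The genes and lists were chosen with earlier results of these data known. The genes named from a list are those called with the smallest p and the 2 most abundant, per kb of exon for the synapse lists, and the genes of similar pattern are the 3 with the highest r. Some genes that this rule names are not reported here. The numbers 1 to 4 of the replicates come from the titles, and nothing says that a library is 1 mouse. The paper's reporting summary names technical replicates for RNA sequencing, without saying how they relate to the libraries. The p-values thus treat the libraries as the units and rest on the spread between them. Depth sets the precision of low genes, such as Gabra2 with 39 to 101 counts per library. Gm14204, Gm48226, Gm48225, the Glra genes, Slc6a5, the called markers and the markers named by their sign were named outside this rule after their values were seen.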

Additional observations from a re-analysis of the deposited data

Results flagged for a closer look

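Gabrb2 stood out for the sign of its genotype effect in each sex: the estimated log2 fold change in females was above that in males by 1.408 (unadjusted p = 0.00119, FDR = 0.274 by edgeR), which did not pass the correction over all genes, so that a difference between the sexes is not shown. Every APP-NL-G-F female library lay above the WT female mean, and every APP-NL-G-F male library below the WT male mean.

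In 2 groups of 4 libraries a marker sum lay far from the others by Dixon's test, where 44 groups were tested and chance gives about 2.2. The neuron sum of WT male replicate 2 was lowest, at 424.5 CPM against 559.2 CPM for the nearest library, and the gap was 0.86 of the range. The inhibitory neuron sum of APP-NL-G-F female replicate 3 was highest, at 444.3 CPM against 393.2 CPM, and the gap was 0.861 of the range.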

How the results depend on the processing

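The direction of Gad1, Gad2, Slc32a1, Gabra2, Gphn and Glrb over both sexes held in all alternatives run, but not the size. With a neuron covariate the log2 fold changes fell from 0.485 to 0.179 (Gad1), 0.378 to 0.226 (Gad2), 0.386 to 0.216 (Slc32a1), 0.477 to 0.244 (Gabra2), 0.308 to 0.142 (Glrb) and 0.185 to 0.029 (Gphn), and 0 of the 5 genes below an FDR of 0.1 stayed there. With no filter on low counts Glrb also passed above it (FDR = 0.159 by edgeR). That of Gabrb2 turned with a neuron covariate (-0.026), with no sex term (-0.008), within library numbers 9 to 16 (-0.133) and when 1 library was left out (-0.084 to 0.174, lowest without WT female replicate 2, and also below 0 without WT female replicate 1 at -0.079 and APP-NL-G-F female replicate 1 at -0.011). Over both sexes 0 of the 7 genes were called, against 1 with limma voom, 5 with the FDR alone, 2 within numbers 1 to 8 and 0 to 2 with 1 library left out. The replicate numbers did not pair the samples, since the correlations of same-numbered deviations were 0.047 to 0.135 in females and -0.33 to 0.019 in males and 2 of 8 libraries correlated best with their own number. With a replicate block 1 of 7 genes was called over both sexes (Gad1, 0.50), and the other counts kept their values. In females, 3 were called, against 1 at an FDR of 0.05, 0 with a neuron covariate, 0 without WT female replicates 1 and 2 and 0 to 5 with 1 library left out. In males it was 0, against 1 with no filter on low counts (Gabrb2) and 0 to 2 with 1 library left out. The interaction had 0, against 1 with DESeq2 and 1 with no filter (Gabrb2) and 0 to 1 with 1 library left out. The 5 called genes of the other synapse lists became 10 with the FDR alone, 0 with a neuron covariate and 4 to 9 with 1 library left out. The neuron covariate removes part of any genotype difference that these genes share with neuron markers. The cause of the other changes was not tested. Low counts limit Gabra2, Gabrb2 and Glrb, and the Glra genes could not be tested.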
